A study of Homo sapiens with 12 samples.

Results

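The 10 genes described here are lineage genes of the squamous and glandular lung, namely SOX2, TP63, PITX1, TFAP2A, DSG3, DSC3, PKP1, FGFR1, NKX2-1 and FOXA2. They were taken by name from a raw count table of 58302 Ensembl genes and read across 4 groups of 3 libraries, so that the identity of the cells in each group could be described. Of the 10 genes, 8 passed the filter on low counts and were tested among 17849 genes, whereas DSG3 and PKP1 did not pass and are given by their counts alone. RNA came from NCI-H520, a human cell line of lung squamous cell carcinoma, which had been transduced with a lentivirus. The virus carried L1-FGGY, a chimeric transcript of a LINE-1 element and the gene FGGY (OV-L1-FGGY), or no insert (the empty vector, OV-CTRL).

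One group was OV-L1-FGGY with DMSO at 0.2%, and another was OV-L1-FGGY with 10 μM ML355, an inhibitor of the lipoxygenase 12-LOX. A further group carried the label OV-L1-FGGY with NVR, an L1 inhibitor given at 450 μM, and the last was OV-CTRL with DMSO at 0.2%. Medium with the compound replaced the culture medium 5 h after seeding. No DMSO content is given for the ML355 and NVR-labelled libraries, so that a difference in solvent cannot be told apart from an effect of the compound. In the count table the NVR columns and a set of DMSO columns lack the L1-FGGY prefix that the others carry, and this DMSO set was read as OV-CTRL. The sources used here do not say whether the libraries of a group came from separate cultures, nor whether each lentiviral line was 1 clone, so that p-values measure the spread between these libraries, which may be technical.

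FGGY, to which part of the expressed transcript belongs, was checked first. Its level in OV-L1-FGGY with DMSO was 287 ± 22 CPM (counts scaled to a common library size, SD, n = 3), 318 ± 47.8 CPM with ML355 and 3.41 ± 0.418 CPM in OV-CTRL. In the NVR-labelled libraries it was at 4.25 ± 0.523 CPM, which goes against a label of L1-FGGY cells, and these libraries are therefore called by their label throughout. Totals ran from 16242082 to 27004768 counts per library. Across genes, the log2 CPM of OV-L1-FGGY with DMSO correlated at r = 0.755 to 0.765 with OV-CTRL, against 0.939 to 0.972 between the NVR-labelled libraries and OV-CTRL and 0.979 to 0.993 within groups. These correlations are over genes, which are not independent replicates. That all groups are NCI-H520 was taken from the sources and was not tested. OV-L1-FGGY and OV-CTRL are separate lines, so that an effect of the insert cannot be told apart from any other difference between them. Rose and fell below give the direction of a difference between groups and no change within a line.

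In stratified and squamous epithelium, the transcription factors SOX2 and p63, the product of TP63, hold basal cells in their state, and both genes lie on the long arm of chromosome 3 that is often gained in lung squamous cell carcinoma. Desmosomes, which DSG3, DSC3 and PKP1 help to build, tie squamous cells to each other, and the proteins of these genes are used by pathologists to tell squamous carcinoma from adenocarcinoma. NKX2-1 and FOXA2 are the transcription factors of the alveolar and airway gland lineages, and NKX2-1 protein is the usual marker of lung adenocarcinoma. PITX1 and TFAP2A are transcription factors of surface epithelium, and FGFR1 is a fibroblast growth factor receptor whose gene is gained in part of lung squamous carcinomas.

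RefSeq promoters (GRCh38.p14, 250 bases before and 50 after the start) were found for 8 of the 10 genes, and FGFR1 and FOXA2 had no entry. Those of 4 genes are printed 5′ to 3′ because they mark the range of the levels below. SOX2 had no read in some groups and over 100 reads per library in others, DSG3 and PKP1 were nearly without reads in every group, and PITX1 had the highest level in every group. Capitals mark matches, on either strand, to ACAAAG, a core of SOX binding sites, and to GCCNNNGGC, the AP-2 site of TFAP2A (matches of which may overlap). SOX2 (chr3:181711675-181711974, plus strand), DSG3 (chr18:31447491-31447790, plus strand), PKP1 (chr1:201283256-201283555, plus strand) and PITX1 (chr5:135034179-135034478, minus strand) read as follows.
SOX2: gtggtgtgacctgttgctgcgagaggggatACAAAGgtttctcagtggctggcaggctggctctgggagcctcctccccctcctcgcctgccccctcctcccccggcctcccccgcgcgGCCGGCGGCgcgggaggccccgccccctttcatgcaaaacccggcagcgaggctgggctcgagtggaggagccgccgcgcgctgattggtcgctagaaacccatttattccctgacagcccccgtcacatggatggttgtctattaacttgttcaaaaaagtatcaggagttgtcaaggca
DSG3: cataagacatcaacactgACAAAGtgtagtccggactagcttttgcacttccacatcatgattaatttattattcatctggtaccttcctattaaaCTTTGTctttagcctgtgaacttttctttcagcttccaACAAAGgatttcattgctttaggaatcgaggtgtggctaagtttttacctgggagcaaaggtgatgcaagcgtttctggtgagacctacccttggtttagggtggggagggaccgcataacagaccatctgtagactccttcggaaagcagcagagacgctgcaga
PKP1: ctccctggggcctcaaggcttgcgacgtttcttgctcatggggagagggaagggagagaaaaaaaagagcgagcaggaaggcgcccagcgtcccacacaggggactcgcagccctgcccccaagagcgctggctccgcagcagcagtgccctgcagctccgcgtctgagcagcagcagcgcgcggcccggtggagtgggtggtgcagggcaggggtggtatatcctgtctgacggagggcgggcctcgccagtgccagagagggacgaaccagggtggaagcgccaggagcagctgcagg
PITX1: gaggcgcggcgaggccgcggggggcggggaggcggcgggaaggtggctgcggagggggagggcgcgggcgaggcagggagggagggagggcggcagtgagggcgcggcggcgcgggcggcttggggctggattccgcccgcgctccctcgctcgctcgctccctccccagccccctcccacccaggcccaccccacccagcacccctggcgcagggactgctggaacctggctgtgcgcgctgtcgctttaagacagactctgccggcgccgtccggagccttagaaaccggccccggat

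The SOX2 promoter held 1 match to ACAAAG and 1 run that matched GCCNNNGGC, and that of DSG3 held 3 matches to ACAAAG. Of 34943 promoters of the same length, 16.1% held ACAAAG and 23.2% held GCCNNNGGC. None of the promoter entries of TP63, DSC3, PKP1, PITX1, TFAP2A and NKX2-1 held either. TP63 had 1 entry, at the upstream start of the gene, and any other start was not read. None of the 8 genes' promoters held TGTTTAC, a FOXA site found in 3.42% of promoters, or TAATCC, a PITX site found in 6.36%. TATAAA, found in 11.6% of promoters, occurred in 1 of the 2 TFAP2A entries and at the end of that of TP63. CpG dinucleotides numbered 35 in the PITX1 promoter, 20 in that of SOX2, 19 in that of PKP1 and 6 in that of DSG3, against a median of 14 over all promoters. DSG3 and PKP1, both nearly without reads, thus lay below and above that median. These matches and counts describe the letters and no binding or methylation was measured.

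The plot of members by library gives each gene's CPM in each of the 12 libraries.

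**Figure D1:**
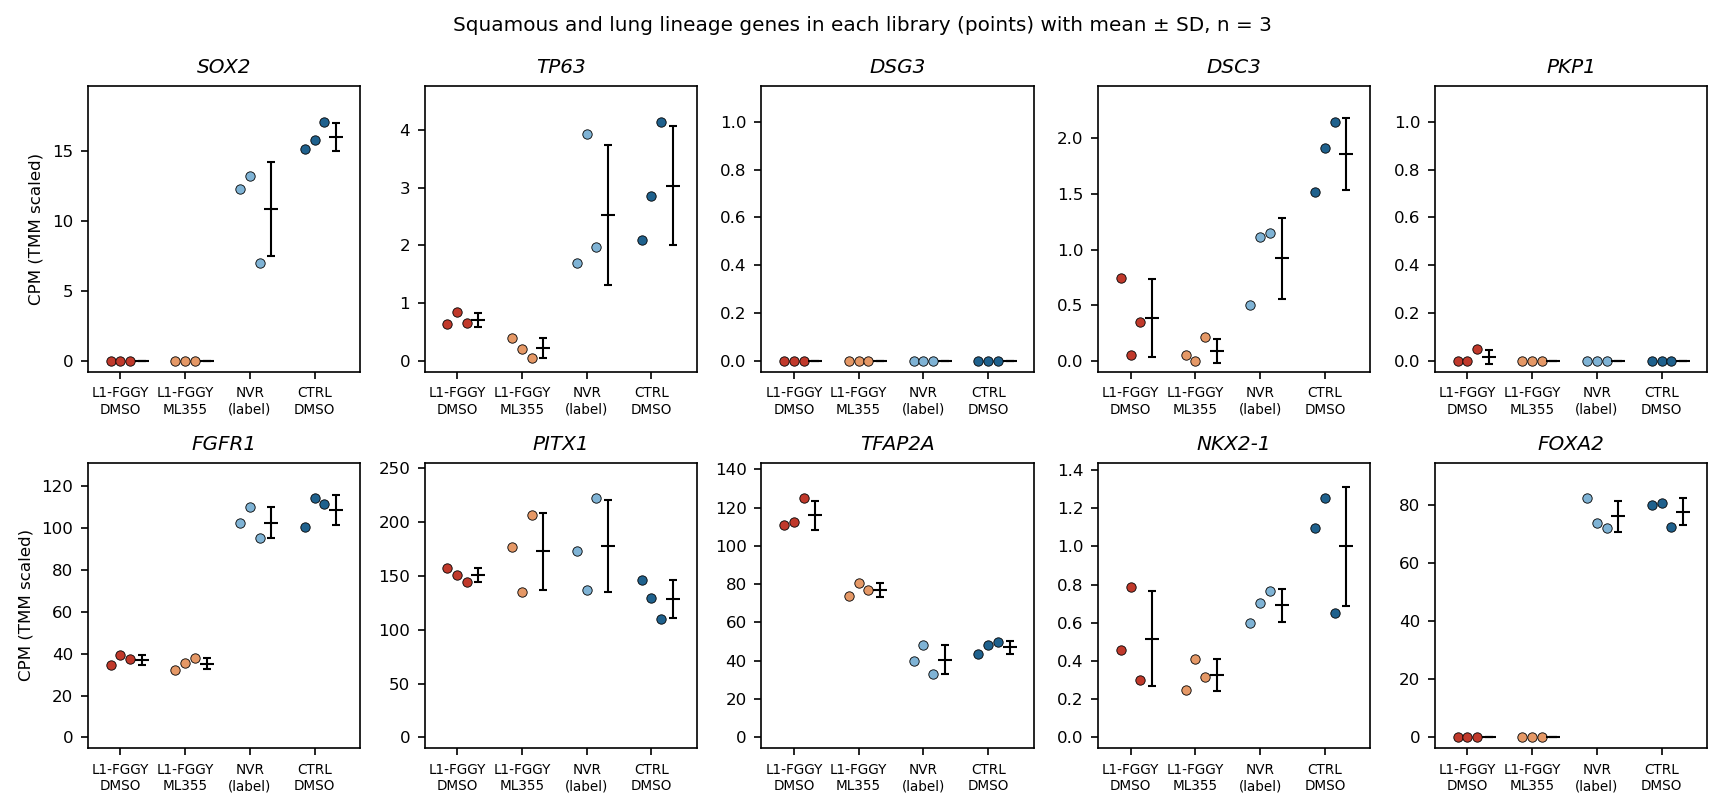
CPM scaled by the trimmed mean of M values (y axis, one linear scale per gene) of the 10 genes in each library (points) with mean ± SD of the 3 libraries (bar) for OV-L1-FGGY with DMSO, with ML355, the NVR-labelled libraries and OV-CTRL with DMSO. SOX2 and FOXA2 are at 0 in the 6 libraries of the first 2 groups, DSG3 is at 0 in all 12, and PITX1 is above 100 CPM throughout.

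The identity of the OV-L1-FGGY and OV-CTRL cells was first read from the transcription factors of the squamous lineage. SOX2, TP63, DSC3, FGFR1 and FOXA2 were lower in OV-L1-FGGY with DMSO than in OV-CTRL with DMSO, TFAP2A was higher, and PITX1 and NKX2-1 did not pass the test. Both SOX2, a squamous factor, and FOXA2, a glandular factor, were therefore among the genes that fell. With adjusted p under 0.01 by edgeR's quasi-likelihood test, 5 of the 8 tested members fell and 1 rose. The background was high, since 68.7% of all genes tested were called in this comparison, 36.2% lower and 32.5% higher. In 6 members the 2 groups did not overlap, against 81.5% of all genes tested (43.0% lower and 38.5% higher). The share of members called in either direction was thus near that of all genes, with more of the members among the falls. The median log2 fold change of the 8 members was -1.82, against -0.11 over all genes tested, and it was the same with SOX2 and FOXA2 set at the bounds given below. As these are bulk libraries, fewer cells of a type and less RNA per cell cannot be told apart.

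SOX2 (chromosome 3, 181711925 to 181714436, hg38, GENCODE 44) had 0 counts in each of the 3 OV-L1-FGGY libraries with DMSO. OV-CTRL had 360, 404 and 446 counts, or 16 ± 1.0 CPM (SD, n = 3). Every OV-CTRL library was thus far above every OV-L1-FGGY library, and SOX2 was at least 99.9-fold lower in OV-L1-FGGY against a floor of 3 counts per library (edgeR adjusted p = 3.01e-09). SOX2-OT, the long non-coding RNA within whose span SOX2 lies on the same strand, had at most 5 counts in any of the 12 libraries.

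TP63 (chromosome 3, 189631389 to 189897276), which encodes p63, was low in every group. It had 11, 16 and 13 counts in OV-L1-FGGY with DMSO, or 0.709 ± 0.115 CPM, and 50, 73 and 108 in OV-CTRL, or 3.03 ± 1.03 CPM. The groups did not overlap, and TP63 was 4.25-fold lower in OV-L1-FGGY (log2 fold change -2.09, SE 0.43, edgeR adjusted p = 0.00032). Its close relative TP73 had 30 to 39 counts in OV-L1-FGGY and 35 to 40 in OV-CTRL and did not pass the test (log2 fold change 0.31, edgeR adjusted p = 0.406).

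TFAP2A (chromosome 6, 10393186 to 10419659), an AP-2 factor of surface ectoderm, moved the other way. It had 1934, 2136 and 2477 counts in OV-L1-FGGY with DMSO, or 116 ± 7.64 CPM, against 1030, 1230 and 1291 in OV-CTRL, or 47.0 ± 3.25 CPM. All 3 OV-L1-FGGY libraries were above all 3 OV-CTRL libraries, and the rise was 2.47-fold (log2 fold change 1.30, SE 0.13, edgeR adjusted p = 9.61e-08). The antisense gene TFAP2A-AS1 overlaps TFAP2A and had 13 to 120 counts per library. Whether counting used strand is not given in the sources used here, so that reads of such a pair cannot be told apart. The paralogue TFAP2C had a log2 fold change of -0.62 (edgeR adjusted p = 0.021), which did not pass, and TFAP2B was at 0 counts in all 12 libraries.

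PITX1 (chromosome 5, 135027734 to 135034813), a homeobox factor of hindlimb and oral epithelium, was the member with the highest level in every group. It had 2744, 2874 and 2866 counts in OV-L1-FGGY with DMSO, against 3468, 3323 and 2877 in OV-CTRL. In CPM this was 151 ± 6.49 against 129 ± 17.8, the groups overlapped, and the difference did not pass the test (log2 fold change 0.23, SE 0.17, edgeR adjusted p = 0.232).

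FOXA2 (chromosome 20, 22580998 to 22585455), a pioneer factor of endoderm, had 1904, 2061 and 1883 counts in OV-CTRL, or 77.6 ± 4.69 CPM. In the OV-L1-FGGY libraries with DMSO it had 0 counts in each, and was at least 484-fold lower (edgeR adjusted p = 1.34e-12). The paralogue FOXA1 was present in both, at 11.2 ± 1.71 CPM in OV-L1-FGGY and 10.0 ± 0.841 CPM in OV-CTRL, and did not pass the test (log2 fold change 0.16, edgeR adjusted p = 0.493).

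NKX2-1 (chromosome 14, 36516392 to 36521149), also known as TTF-1, was near the detection limit. It had 8, 15 and 6 counts in OV-L1-FGGY with DMSO, against 26, 32 and 17 in OV-CTRL, or 0.517 ± 0.248 against 0.999 ± 0.311 CPM. Although every OV-CTRL library had more counts, the groups overlapped in CPM, and the log2 fold change of -0.94 (SE 0.42, edgeR adjusted p = 0.0527) did not pass.

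Of the desmosomal members, DSG3 (chromosome 18, 31447741 to 31478702), the cadherin desmoglein 3, had 0 counts in all 12 libraries. PKP1 (chromosome 1, 201283452 to 201332993), the plaque protein plakophilin 1, had 1 count in OV-L1-FGGY with DMSO replicate 3 and 0 elsewhere. A count of 0 allows up to 3 counts, which covers counting error only. By unscaled library totals, unlike the scaled CPM given elsewhere, 3 counts are 0.111 to 0.185 CPM in these libraries. DSC3 (chromosome 18, 30989365 to 31042815), the cadherin desmocollin 3, had 13, 1 and 7 counts in OV-L1-FGGY with DMSO, against 36, 49 and 56 in OV-CTRL. The groups did not overlap, and DSC3 was 4.88-fold lower in OV-L1-FGGY (log2 fold change -2.29, SE 0.58, edgeR adjusted p = 0.002). Its size rested in part on single libraries, as the log2 fold change was -3.14 without OV-L1-FGGY DMSO replicate 1 and -1.77 without replicate 2.

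FGFR1 (chromosome 8, 38400215 to 38468834) had 601, 745 and 742 counts in OV-L1-FGGY with DMSO, or 37.0 ± 2.38 CPM. In OV-CTRL it had 2386, 2923 and 2907 counts, or 109 ± 7.37 CPM. The libraries of the groups were far apart and FGFR1 was 2.94-fold lower in OV-L1-FGGY (log2 fold change -1.55, SE 0.11, edgeR adjusted p = 1.77e-09). LETM2, which overlaps FGFR1 on the opposite strand, had 22 to 104 counts per library.

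Levels of different genes were compared only as CPM per kilobase of exon. In OV-CTRL, PITX1 was at 37.4 ± 5.17 CPM per kilobase and FOXA2 at 28.6 ± 1.72. SOX2 at 6.38 ± 0.398, FGFR1 at 6.32 ± 0.429 and TFAP2A at 5.72 ± 0.395 followed, and neighbours among these 3 overlapped in their libraries. TP63 at 0.406 ± 0.138, NKX2-1 at 0.316 ± 0.0981 and DSC3 at 0.242 ± 0.0417 formed a low group, again with overlap between neighbours. In OV-L1-FGGY with DMSO the order per kilobase was PITX1 at 43.9 ± 1.89, TFAP2A at 14.1 ± 0.930 and FGFR1 at 2.15 ± 0.138, none of which overlapped. Below these, NKX2-1 at 0.163 ± 0.0785, TP63 at 0.0948 ± 0.0154 and DSC3 at 0.0498 ± 0.0452 overlapped with their neighbours, and SOX2 and FOXA2 left the list. TP63 was thus far below SOX2 in OV-CTRL, and the libraries of NKX2-1 and TP63 overlapped in both groups.

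ML355 was compared with DMSO within OV-L1-FGGY cells to ask whether the lineage genes differed with the inhibitor. Of the 8 tested members, 1 was called, TFAP2A, which fell, against 44.8% of all genes tested. In 2 members, TP63 and TFAP2A, the libraries did not overlap, against 62.6% of all genes tested. SOX2 and FOXA2 had 0 counts in all 3 ML355 libraries, as in DMSO, so that they have no fold change here. Over the other 6 members the median log2 fold change was -0.63, against 0.00 over all genes tested.

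TFAP2A had 1494, 1567 and 1464 counts with ML355, or 77.1 ± 3.55 CPM, below all 3 DMSO libraries. It fell by 0.59 on the log2 scale (SE 0.13, edgeR adjusted p = 0.000765), a 1.51-fold decrease, and stayed above the level of OV-CTRL in each library. TP63 had 8, 4 and 1 counts with ML355, or 0.218 ± 0.171 CPM, and its log2 fold change of -1.66 (SE 0.60, edgeR adjusted p = 0.0266) did not pass. With no filter on low counts it did pass (log2 fold change -1.68, edgeR adjusted p = 0.00679). DSC3 had 1, 0 and 4 counts with ML355, which overlapped with DMSO (log2 fold change -2.07, SE 0.91, edgeR adjusted p = 0.0626). The value was -1.22 without OV-L1-FGGY DMSO replicate 1 and -3.62 without ML355 replicate 3.

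FGFR1 had 655, 691 and 718 counts with ML355, or 35.2 ± 2.75 CPM, a log2 fold change of -0.07 (SE 0.11, edgeR adjusted p = 0.59). PITX1 had 3582, 2618 and 3938 counts, a wide spread of 173 ± 36.2 CPM, with a log2 fold change of 0.19 (SE 0.17, edgeR adjusted p = 0.352). NKX2-1 had 5, 8 and 6 counts, with a log2 fold change of -0.66 (SE 0.50, edgeR adjusted p = 0.27). In these 3 genes the ML355 and DMSO libraries overlapped. Without the NVR-labelled libraries, a fit added after the data were seen also called 1 member for ML355 and 6 between OV-L1-FGGY and OV-CTRL.

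The libraries labelled NVR were compared with both DMSO groups, because their FGGY level was that of OV-CTRL. Against OV-L1-FGGY with DMSO, SOX2, FOXA2, FGFR1 and TP63 were higher and TFAP2A was lower, which made 5 of 8 members called against 73.6% of all genes tested (38.2% higher and 35.4% lower). The same 5 members did not overlap, against 82.5% of all genes tested (42.5% higher and 40.0% lower), and the median log2 fold change was 1.38 over the 8 members and 0.08 over all genes tested. This comparison shares its OV-L1-FGGY libraries with that of OV-L1-FGGY against OV-CTRL.

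SOX2 had 246, 358 and 128 counts in the NVR-labelled libraries, or 10.9 ± 3.36 CPM, at least 67.7-fold above OV-L1-FGGY with DMSO (edgeR adjusted p = 5.65e-09). FOXA2 had 1643, 1993 and 1315 counts, or 76.1 ± 5.4 CPM, at least 474-fold higher (edgeR adjusted p = 1.26e-12). Both genes were thus read in all 6 libraries with low FGGY and in none of the 6 with high FGGY. FGFR1, the growth factor receptor, had 2049, 2976 and 1741 counts, or 103 ± 7.34 CPM, and was 2.78-fold higher (log2 fold change 1.47, SE 0.11, edgeR adjusted p = 2.61e-09). TP63 had 34, 106 and 36 counts, the second library standing above the others, and was 3.60-fold higher (log2 fold change 1.85, SE 0.43, edgeR adjusted p = 0.00094). TFAP2A had 797, 1306 and 607 counts, or 40.5 ± 7.55 CPM, and was 2.86-fold lower (log2 fold change -1.52, SE 0.13, edgeR adjusted p = 1.36e-08).

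The remaining tested members did not pass against OV-L1-FGGY with DMSO. DSC3 had 10, 30 and 21 counts (log2 fold change 1.28, SE 0.62, edgeR adjusted p = 0.0662), and NKX2-1 had 12, 19 and 14 (log2 fold change 0.42, SE 0.44, edgeR adjusted p = 0.395). PITX1 had 3470, 3699 and 4049 counts, or 178 ± 42.7 CPM (log2 fold change 0.23, SE 0.17, edgeR adjusted p = 0.219).

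When the NVR-labelled libraries were set against OV-CTRL with DMSO, none of the 8 tested members was called by edgeR, where 29.8% of all genes tested were. DESeq2 and limma voom also called 0 members, and 2 members, SOX2 and PITX1, had an unadjusted p under 0.05. In 2 members, SOX2 and DSC3, the groups did not overlap, against 52.9% of all genes tested, and the median log2 fold change was -0.23 over the members and 0.00 over all genes tested. SOX2, read in every library of both groups, had a log2 fold change of -0.55 (SE 0.22, edgeR adjusted p = 0.0615). DSC3 had a log2 fold change of -1.0 (SE 0.51, edgeR adjusted p = 0.122). PITX1 had a log2 fold change of 0.46 (SE 0.17, edgeR adjusted p = 0.0386), and it did pass without NVR replicate 2 (log2 fold change 0.62, edgeR adjusted p = 0.00312). FOXA2 at -0.03, FGFR1 at -0.08, TFAP2A at -0.21, TP63 at -0.24 and NKX2-1 at -0.53 on the log2 scale had edgeR adjusted p from 0.187 to 0.859.

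**Figure D2:**
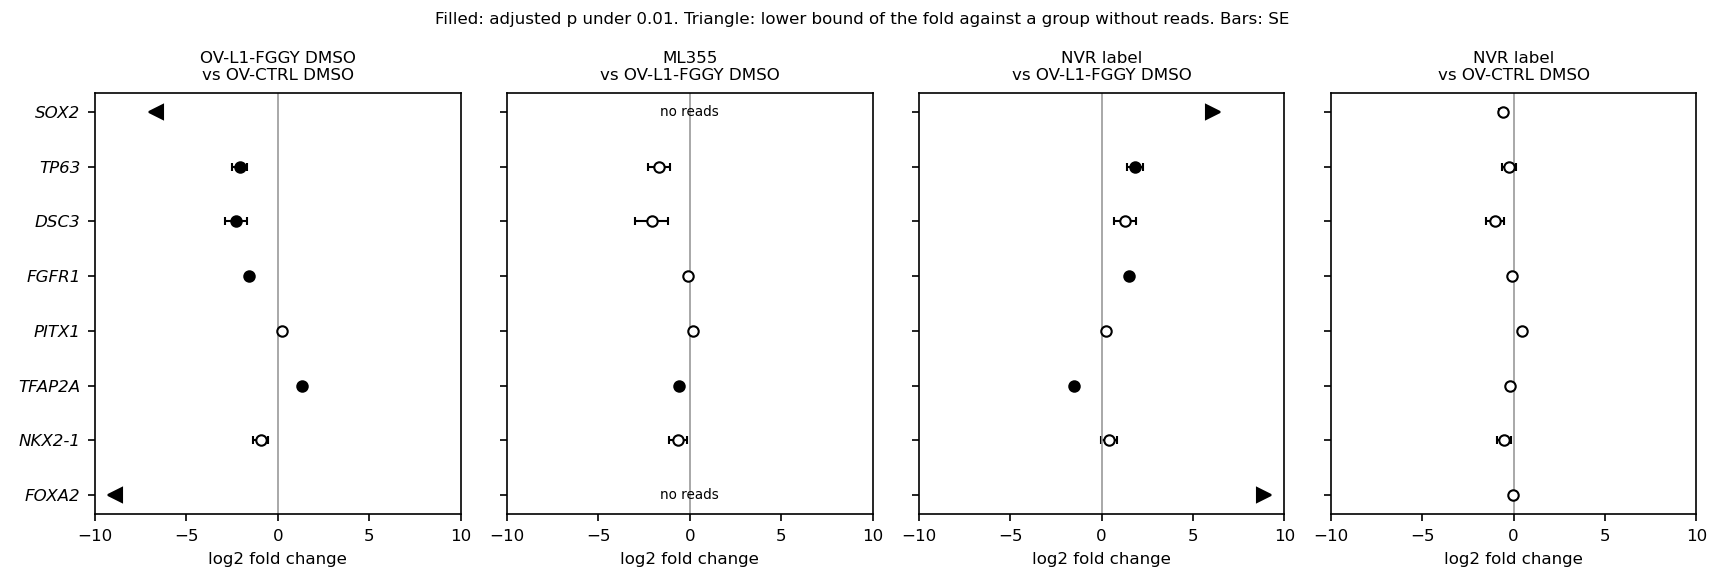
Log2 fold change ± SE (x axis) of the 8 tested members (y axis) in each of 4 comparisons, filled where edgeR's adjusted p was under 0.01. Triangles for SOX2 and FOXA2 mark a fold against a group at 0 counts computed at the floor of 3 counts per library, so that the true fold may be larger. In the comparison of the NVR-labelled libraries with OV-CTRL no symbol is filled.

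The test of the difference between both inhibitor effects, each against the DMSO group set beside it, called 0 of the 8 members by edgeR. It called 34.1% of all genes tested. SOX2 and FOXA2 had 0 counts in both OV-L1-FGGY groups, so that edgeR could not have called either of them here. DESeq2 and limma voom also called 0, and 1 member, TFAP2A, had an unadjusted p under 0.05. Its difference of 0.38 on the log2 scale (SE 0.18, edgeR adjusted p = 0.0917) set -0.21 in the NVR-labelled libraries against -0.59 with ML355. Since the NVR-labelled libraries carry a FGGY level that goes against their label, this test sets ML355 in L1-FGGY cells against a contrast of libraries that may not be L1-FGGY cells.

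The members' desmosomal partners showed another direction than DSC3. Of 11 other desmosome genes 8 were tested, and in OV-L1-FGGY with DMSO against OV-CTRL 5 rose, 2 fell and 1 did not pass. Of all genes tested, 32.5% were higher and 36.2% lower. The median log2 fold change of the 8 genes was 1.155, against -0.11 over all genes tested. DSG2, the desmoglein of simple epithelium, had 4312, 3902 and 4068 counts in OV-L1-FGGY and 1011, 1376 and 1644 in OV-CTRL (log2 fold change 2.04, edgeR adjusted p = 8.48e-08). PKP2, the plakophilin of simple epithelium and heart, rose 4.47-fold and PERP, a desmosomal membrane protein and p53 target, rose 9.09-fold. DSP, which links desmosomes to keratin filaments, rose by 1.27 on the log2 scale and JUP, plakoglobin, by 1.04.

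PKP3 fell by 1.32 on the log2 scale and PKP4 by 0.37. DSC2 had 89, 75 and 103 counts in OV-L1-FGGY against 56, 77 and 93 in OV-CTRL and did not pass (log2 fold change 0.67, edgeR adjusted p = 0.0224). DSC1 and DSG1 had at most 3 and 1 counts in any library. With ML355, 3 of the 8 desmosome genes fell and 5 were not called, where 21.3% of all genes tested were higher and 23.5% lower. Those that fell included PERP (log2 fold change -1.60) and DSC2 (-1.45), and the median was -0.21 against 0.00 over all genes tested. In the NVR-labelled libraries against OV-CTRL 2 rose and 3 fell, where 29.8% of all genes tested were called, with JUP at 1.04 and PKP3 at -1.47.

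The label of squamous carcinoma was checked on 26 further squamous markers, of which 15 were tested and 7 had at most 3 counts in all 12 libraries. KRT6A, CALML3 and IVL were at 0 in each library, and KRT5, the basal keratin that pairs with KRT14, had at most 3 counts in any. DSG3, PKP1, KRT5, KRT6A, CALML3 and IVL, which are markers of squamous cells, were thus absent or nearly so in both cell populations, whereas other squamous markers were read. Between OV-L1-FGGY with DMSO and OV-CTRL, 9 of the 15 tested markers rose, 4 fell and 2 did not pass, where 32.5% of all genes tested were higher and 36.2% lower, with a median log2 fold change of 0.68.

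KRT17, a keratin of basal and activated epithelium, had 16304, 18388 and 18447 counts in OV-L1-FGGY with DMSO, against 6, 5 and 4 in OV-CTRL (log2 fold change 12.17, SE 0.28, edgeR adjusted p = 8.03e-15). SERPINB5, maspin, had 1310 to 1485 counts against at most 1, a ratio of 5620 with a 95% counting interval of 1010 to 222000. NECTIN1, by contrast, fell by 2.52 on the log2 scale. KRT14 had 4, 10 and 8 counts in OV-L1-FGGY and 0 in OV-CTRL, at least 3.23-fold higher, and 54, 29 and 63 with ML355. SOX2 and TP63 thus fell in the same libraries in which KRT17 and SERPINB5 rose.

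With ML355, 6 of the 15 squamous markers were higher and 6 were lower than with DMSO. Of all genes tested, 21.3% were higher and 23.5% lower. The median of the markers was -0.26. KRT17 rose to 97372, 60658 and 91067 counts (log2 fold change 2.17, edgeR adjusted p = 2.2e-08) and COL17A1, a hemidesmosome collagen, fell by 3.46 on the log2 scale. In the NVR-labelled libraries, 2 of the 15 were lower than in OV-CTRL, TRIM29 among them, and 13 were not called. Of all genes tested, 29.8% were called there.

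Of 20 further transcription factors of squamous epithelium, 13 were tested, and 4 rose and 4 fell in OV-L1-FGGY with DMSO against OV-CTRL. Their median was 0.11, and 32.5% of all genes tested were higher and 36.2% lower. HES2 rose by 4.36 and KLF5, a factor of proliferating basal cells, by 2.83 on the log2 scale, whereas EHF fell by 1.68. With ML355, 3 rose and 7 fell, where 21.3% of all genes tested were higher and 23.5% lower. Among these factors were KLF4, a factor of differentiating epithelium, at 2.15, ELF3 at 2.0, EHF at -4.46 and HES2 at -2.16. TP73, the relative of TP63, fell with ML355 (14, 10 and 10 counts, log2 fold change -1.65, edgeR adjusted p = 0.00128) and was lower in the NVR-labelled libraries than in OV-CTRL (9, 6 and 2 counts, log2 fold change -2.47, edgeR adjusted p = 0.00019). In that comparison 1 of the 13 factors rose and 6 fell, where 29.8% of all genes tested were called.

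Of 33 lung lineage genes beside NKX2-1 and FOXA2, 20 were tested. In OV-L1-FGGY with DMSO against OV-CTRL 4 rose and 10 fell, with a median of -0.58, where 32.5% of all genes tested were higher and 36.2% lower. NAPSA, the surfactant-processing protease napsin A, had 3, 0 and 0 counts against 100, 81 and 105, a ratio of 71.2 (95% counting interval 24.1 to 347). MUC5B, an airway mucin, fell by 4.33 on the log2 scale, MUC1 rose by 2.95, and FOXP2 was at least 80-fold higher, at 168 to 187 counts against 0. With ML355, 3 rose and 3 fell, and in the NVR-labelled libraries against OV-CTRL 6 rose and 3 fell. Of all genes tested, 44.8% were called with ML355 and 29.8% in the NVR-labelled libraries against OV-CTRL.

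Other receptors were read beside FGFR1. FGFR3 and FGFR4 were present in all groups, and neither passed the test in any of the 4 comparisons, with log2 fold changes from -0.33 to 0.37 for FGFR3 and from -0.22 to 0.12 for FGFR4. FGFR2 had 0 counts in each OV-L1-FGGY library with DMSO, 4, 16 and 14 in OV-CTRL, 16, 11 and 8 with ML355 and 16, 28 and 18 in the NVR-labelled libraries. It was at least 3.69-fold higher with ML355 than with DMSO (edgeR adjusted p = 0.000191) and at least 2.77-fold lower in OV-L1-FGGY with DMSO than in OV-CTRL (edgeR adjusted p = 0.000225).

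Of the 27 genes of the FGF pathway beside FGFR1, 22 were tested. Between OV-L1-FGGY with DMSO and OV-CTRL, 8 rose, 7 fell and 7 did not pass, with a median of 0.28. Of all genes tested, 32.5% were higher and 36.2% lower. FGFBP1, a secreted carrier of FGFs, rose by 6.77 on the log2 scale, from 9 to 15 counts in OV-CTRL to 913 to 1073. SPRY1, a feedback inhibitor, fell by 2.30, and IL17RD, another inhibitor of FGF signalling, had 0, 0 and 2 counts against 91, 90 and 110. With ML355, 4 rose and 8 fell, and in the NVR-labelled libraries against OV-CTRL 4 rose and 2 fell. The shares of all genes tested that were called there were 44.8% and 29.8%.

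**Figure D3:**
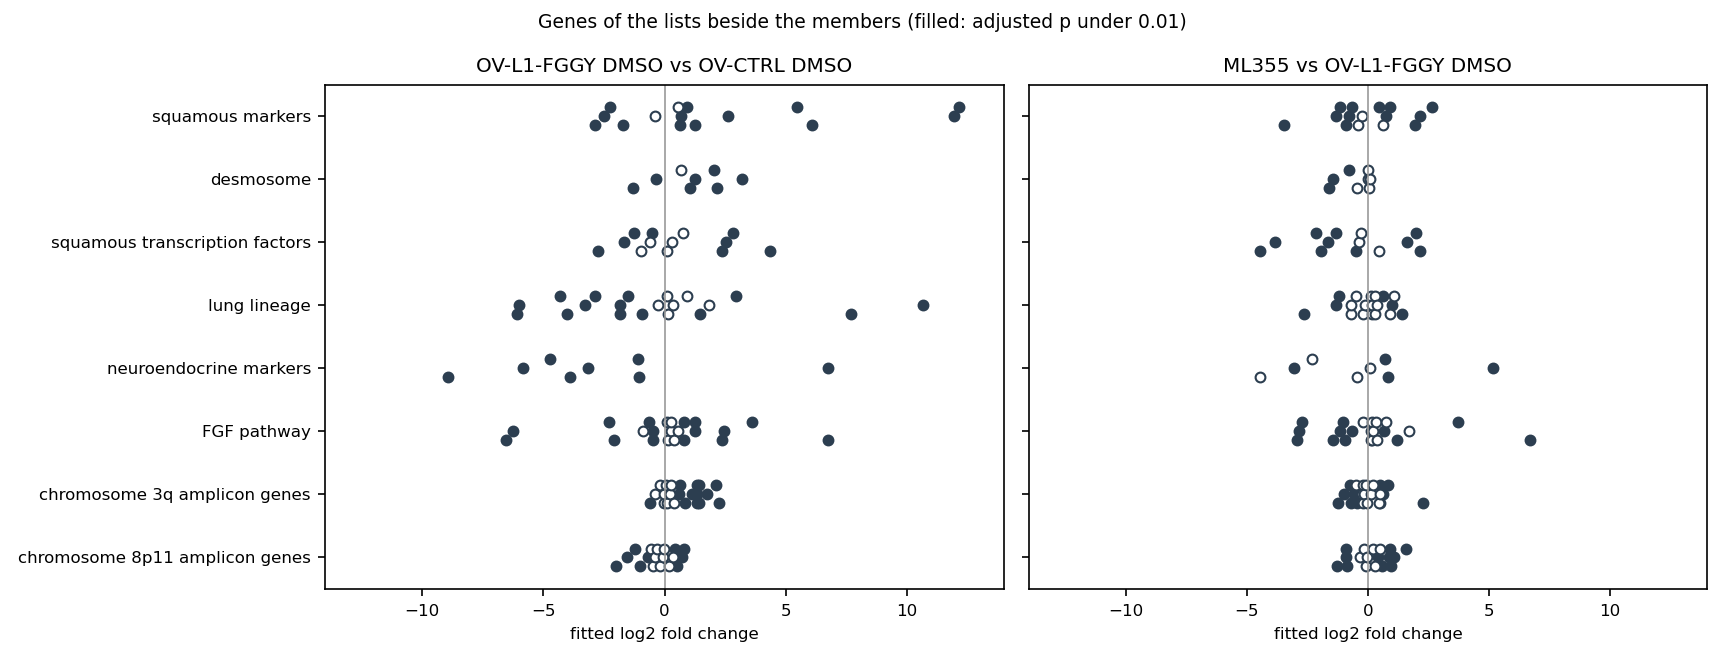
Fitted log2 fold change (x axis) of the tested genes of 8 lists (y axis, points spread vertically for sight), filled where edgeR's adjusted p was under 0.01, for OV-L1-FGGY with DMSO against OV-CTRL with DMSO (left) and ML355 against DMSO (right). The squamous markers on the left reach 12.17 and lie on both sides of 0, and genes at 0 counts in a group are drawn at fitted values that depend on the prior count.

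Markers of another cell type also differed between these cells. Of 14 neuroendocrine markers 8 were tested, and 7 fell and 1 rose in OV-L1-FGGY with DMSO against OV-CTRL, where 36.2% of all genes tested were lower and 32.5% higher. Their summed level was 24.9 to 31.9 CPM in OV-L1-FGGY with DMSO, 35.0 to 42.2 with ML355, 855 to 1144 in the NVR-labelled libraries and 750 to 969 in OV-CTRL, most of it from UCHL1. Of the defining factors, INSM1 had at most 3 counts in any library. Their part in the members' results was not tested.

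For each tested member, the 3 genes with the nearest profile over the 12 libraries were found among 16254 named genes, by the Euclidean distance of log2 CPM centred on each gene's mean. Nearest to SOX2 were EHD3 at 0.474, CNNM1 at 0.559 and TMEM98 at 0.773, all at 0 CPM in both OV-L1-FGGY groups. Nearest to FOXA2 were SMO, the receptor-like transducer of Hedgehog signalling, at 0.649, NLRP2 at 0.756 and AGR2 at 1.12, again all at 0 in both. As these genes were chosen for their nearness to SOX2 or FOXA2, the shared pattern of read and unread libraries follows from the choice. How many of all genes tested have that pattern was not counted.

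For FGFR1 the nearest were IFT140 at 0.333, ZFHX3-AS1 at 0.343 and CLUH at 0.357, and for TFAP2A THUMPD1 at 0.34, ABCG2 at 0.341 and CNOT2 at 0.382. PITX1 lay nearest to HINT1, FADS3 and SH3GLB2, at 0.339 to 0.423. TP63 lay nearest to SPACA6-AS1 at 1.19 and MTSS1 at 1.26, DSC3 to ZNF19, ADCY5 and DLEC1, at 1.72 to 1.97, and NKX2-1 to PELI3, KRTCAP2 and CLCF1, at 0.967 to 1.03.

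Genes next to SOX2 and FOXA2 were read to see how far along the chromosome the difference ran, in a window of 5 Mb either side that was chosen after the values were seen. Of 61 tested genes around SOX2, 17 were higher, 20 were lower and 24 were not called in OV-L1-FGGY with DMSO against OV-CTRL. Of all genes tested, 32.5% were higher and 36.2% lower. The median log2 fold change in the window was 0.08, against -0.11 over all genes tested. The nearest tested gene, DNAJC19, starts 0.722 Mb before SOX2 and had a log2 fold change of 0.41, which was not called. ATP11B, 1.08 Mb after it, was higher at 1.41. In the window, 3 of the 61 genes had at most 3 counts in every library of both OV-L1-FGGY groups. That count was not made over all genes tested, and the cause of the SOX2 difference was not tested.

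Of 55 tested genes around FOXA2, 7 were higher, 28 lower and 20 not called, with a median of -0.99, where 32.5% of all genes tested were higher and 36.2% lower. THBD, thrombomodulin, whose start is 0.464 Mb from that of FOXA2, had a log2 fold change of -1.97. Around TP63, 14 of 44 genes were higher and 13 lower with a median of 0.04, and around FGFR1 11 of 53 were higher and 22 lower with a median of -0.37.

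**Figure D4:**
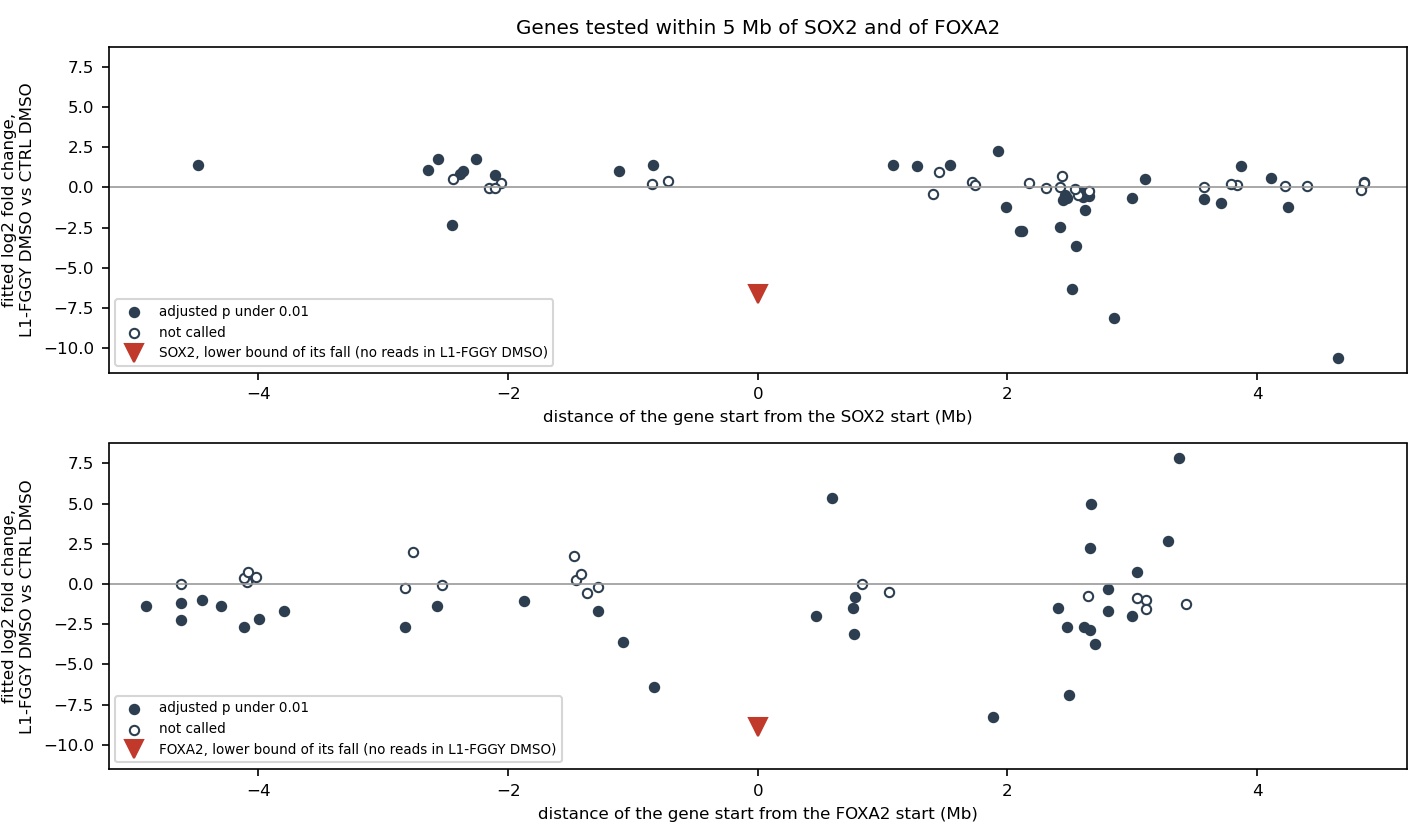
Fitted log2 fold change of OV-L1-FGGY with DMSO against OV-CTRL with DMSO (y axis) of tested genes by the distance of their start from that of SOX2 (top) or FOXA2 (bottom) in Mb (x axis), filled where edgeR's adjusted p was under 0.01. Triangles mark both members at the bound of their fall. Genes beside SOX2 lie on both sides of 0, with a median of 0.08, and those around FOXA2 lie mostly below it, with a median of -0.99.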

How the data were processed

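The authors deposited raw counts of reads per Ensembl gene for 12 libraries of total RNA, made with STAR 2.5.3a on hg38 and HTSeq 0.11.2 per the submitters' processing notes. The annotation release, the strand setting and the treatment of reads with several matches are not given in the sources used here, and the labels and the study's methods name different library kits. Of 58302 gene identifiers, 57532 had a position in GENCODE 44.

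Counts were filtered with filterByExpr, scaled by TMM and fitted in edgeR 4.0.16 (R 4.3.3) with 1 quasi-likelihood model over all 4 groups (robust), leaving 17849 genes. P-values were adjusted by the Benjamini-Hochberg method over all of them, and adjusted p under 0.01 was called. A fold against a group at 0 is a bound at 3 counts per library. The alternatives were DESeq2 1.42.0, limma 3.58.1 (voom), other scalings, filters and thresholds, a fit of the groups compared, a replicate block, each library left out and a fit without the NVR-labelled libraries. The functions were tested on simulated data.

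The members and lists were chosen with earlier results of these data known. Beside the 10 members, the text names up to 2 rises and 2 falls per list with the largest fold changes among called genes of at least 1 CPM on average, the paralogues of the members, the defining markers of each lineage and the genes nearest to a member. DSP, JUP, DSG2, KRT14, NAPSA, TFAP2B, DNAJC19, ATP11B and THBD were named outside that rule or for their family or place after their values were seen. Promoters came from RefSeq (GRCh38.p14) and were read with Python 3.11.15. Some genes that these rules select are not reported here.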

Additional observations from a re-analysis of the deposited data

How the results depend on the processing

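Of the members' log2 fold changes, 505 values under the alternatives kept their direction and side of the threshold, 3 newly passed it and 17 changed sign. For ML355, 2 members were called at adjusted p under 0.05 and 2 with no filter on low counts (TP63 in both), and 0 when a log2 fold change of at least 1 was also asked, where 4590 genes were called. With at least 10 counts in every library, which leaves FGFR1, PITX1 and TFAP2A, 2 members were called between OV-L1-FGGY and OV-CTRL and 2 between the NVR-labelled libraries and OV-L1-FGGY. Between the NVR-labelled libraries and OV-CTRL, 1 member (PITX1) was called at adjusted p under 0.05 and 1 with no filter, 0 to 1 when single libraries were left out, and 2344 genes with a log2 fold change of at least 1. With single libraries left out that comparison called 3506 (without OV-CTRL DMSO replicate 2) to 6106 genes, against 5316 with all. The signs that turned were all of values that had not passed. PITX1 in the NVR-labelled libraries against OV-L1-FGGY was -0.03 with library size alone. FOXA2 in the NVR-labelled libraries against OV-CTRL was 0.01 with DESeq2 and with its size factors and -0.088 to 0.018 with single libraries left out, where TP63 was -0.724 to 0.045. For the difference of the inhibitor effects, FGFR1 was 0.017 with DESeq2, 0.016 with its size factors, 0.044 with at least 10 counts in every library and -0.07 to 0.068 with single libraries left out, and NKX2-1 was -0.30 to 0.42. The cause was not tested. Library size alone put the median log2 fold change of all genes at -0.13 for ML355 and -0.16 and -0.15 for the NVR-labelled libraries against OV-L1-FGGY and OV-CTRL, and no member call changed with it.

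Same-numbered libraries deviated from their group means with r from -0.354 to 0.17. Libraries of different numbers were not compared in this way, so that these values cannot decide whether the numbers pair the libraries. With the replicate block, 1, 5, 6 and 0 members were called for ML355, the NVR-labelled libraries against OV-L1-FGGY, OV-L1-FGGY against OV-CTRL and the NVR-labelled libraries against OV-CTRL, as without it, and 0 for the difference of the inhibitor effects. The genes called were 7583, 12874, 11979, 4754 and 5649.

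With 3 libraries a group, members of few counts (TP63, DSC3, NKX2-1) had SE of 0.37 to 0.91 on the log2 scale between groups. In the difference of the inhibitor effects the SE of DSC3 was 1.04. Differences well above their SE could go uncalled, as with ML355 for TP63 (log2 fold change -1.66, SE 0.60) and DSC3 (-2.07, SE 0.91). At 0 counts, up to 3 counts per library cannot be told from absence. An FGGY level that goes against the NVR label means that values for those libraries describe the libraries and not a treatment.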

Other observations

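Markers of other epithelial lineages differed between the cell populations in both directions. Of 18 such genes 11 were tested, and 5 rose and 6 fell in OV-L1-FGGY with DMSO against OV-CTRL with DMSO. In this comparison 68.7% of all genes tested were called. CGA, the alpha subunit shared by the glycoprotein hormones, had 60788, 59661 and 57410 counts in OV-L1-FGGY with DMSO, against 0 in each OV-CTRL library, at least 26500-fold higher, and 7641, 5431 and 7894 with ML355 (log2 fold change -3.15, edgeR adjusted p = 1.93e-08). GATA3, a factor of breast, urothelium and T cells, had 421, 497 and 460 counts in OV-CTRL and 0 in OV-L1-FGGY with DMSO, at least 114-fold lower. WT1, a factor of kidney and mesothelium, had 79 to 97 counts in OV-CTRL and 0 in OV-L1-FGGY with DMSO, at least 21.2-fold lower.

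Of 10 tested mesenchymal markers, 4 rose and 4 fell between OV-L1-FGGY with DMSO and OV-CTRL, where 68.7% of all genes tested were called. SNAI2, a repressor of epithelial genes, rose by 3.66 and ZEB2 by 2.23 on the log2 scale, whereas TWIST1 fell by 3.65 and SPARC, a matrix protein, went from 4373 to 5013 counts in OV-CTRL to 0, 4 and 0. Of 5 tested blood and endothelial markers 4 rose and 1 fell in the same comparison, with a summed level of at most 13.7 CPM in any library of the 12. CDH5, the endothelial cadherin, had 112, 106 and 130 counts in OV-L1-FGGY with DMSO, against 8, 11 and 10 in OV-CTRL.

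Genes of the chromosome 3q gain that holds SOX2 and TP63 were read beside both. Of 23 genes listed by name 22 were tested, and 12 rose and 1 fell in OV-L1-FGGY with DMSO against OV-CTRL. This was 59.1% called, against 68.7% of all genes tested (32.5% higher and 36.2% lower). Their median log2 fold change was 0.61, against -0.11 over all genes tested. The 5 Mb windows, which took every tested gene, had 17 higher and 20 lower of 61 around SOX2 (median 0.08). Around TP63 they had 14 higher and 13 lower of 44 (median 0.04). PRKCI, a polarity kinase, rose by 2.25 and SKIL by 2.14 on the log2 scale, and EIF4G1 fell by 0.59. Of 18 genes of the chromosome 8p11 gain around FGFR1, 4 rose, 5 fell and 9 did not pass, with a median of -0.25. ZNF703 fell by 1.99 and EIF4EBP1 by 1.54, while TACC1 rose by 0.81 and BAG4 by 0.74. No copy number was measured here.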
